A study of Homo sapiens with 8 samples.

Results

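ATF4 binding was compared between untreated Nalm6 cells and Nalm6 cells given L-asparaginase, using the 4 Nalm6 libraries out of 8 in the series. Nalm6 is an established acute lymphoblastic leukaemia (ALL) cell line; SUPB15, the other line of the series, is used below only as a separate readout. Treated cells were exposed to L-asparaginase at 1 IU/ml, and the exposure lasted 2 h; untreated cells received none. Each group had 2 libraries. All cells grew in RPMI-1640 with 10% serum, glutamine and antibiotics, and every immunoprecipitation used 5 ug of a rabbit monoclonal antibody against ATF4. The libraries of a group stand for independent experiments according to the series text; any further experiment was not analysed here. Each library came as its own list of peaks in the hg19 build. Peaks of the 4 lists that share at least 1 bp were joined, which gave 57175 regions. No gene positions of the hg19 build were used here, so regions are named by position only and no sequence is printed.

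ATF4 is a basic leucine zipper transcription factor of the integrated stress response. When an amino acid runs short, uncharged transfer RNA activates the kinase GCN2, general translation slows and translation of the ATF4 messenger RNA rises. ATF4 then binds composite elements, often as a dimer with a C/EBP protein, at genes for amino acid synthesis and uptake. L-asparaginase breaks down asparagine, which many lymphoblastic leukaemia cells make too slowly for their own needs, so the drug triggers this response.

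The untreated libraries had 34825 and 36801 peaks, and the asparaginase libraries 43376 and 48984. The peak caller gives each peak a fold enrichment, which is the number of fragments piled up at its summit over a local background. The pileup and the local background were solved from the fold and its p-value for 100% of peaks. Relative sequencing depth was read from the smallest local background of each list, its genome background: 2.97 and 2.79 fragments per position in the untreated libraries, 2.21 and 2.33 in the asparaginase libraries. Both asparaginase libraries were therefore shallower, yet held more peaks. The median fold enrichment was 4.46 and 4.55 without the drug and 5.07 and 5.02 with it. Folds of at least 10 were reached by 1208 and 1521 untreated peaks and by 3450 and 3852 asparaginase peaks.

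A peak in all 4 lists was found at 25213 regions, 44.1% of the total. Another 5771 regions were held by 3 lists, 10628 by 2 and 15563 by 1. Among regions in 3 lists, the missing list was more often an untreated one: 4066 regions had both asparaginase libraries and 1 untreated library, and 1705 had both untreated libraries and 1 asparaginase library. The same lean appeared among regions in 2 lists, where 7040 regions (12.3% of all regions) had both asparaginase libraries only, called gained below, and 694 (1.21%) had both untreated libraries only. The 4 combinations of 1 untreated with 1 asparaginase library held 2894 regions together. Regions in a single list came most often from asparaginase replicate 2, with 7318, and least often from untreated replicate 1, with 2315. Asparaginase replicate 2 was also the longest list. With the 34825 strongest peaks of every list, 4304 regions were gained and 2122 were untreated-only, so the lean toward asparaginase was much smaller with lists of equal length. Leaving out 1 library loosens the definition of both classes, so their counts grow by construction: 14580 regions were gained without asparaginase replicate 1. The class of untreated-only regions grew to 3619 without untreated replicate 1 and to 3205 without untreated replicate 2. It grew to 1182 without asparaginase replicate 1 and to 1964 when asparaginase replicate 2 was left out.

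**Figure D1:**
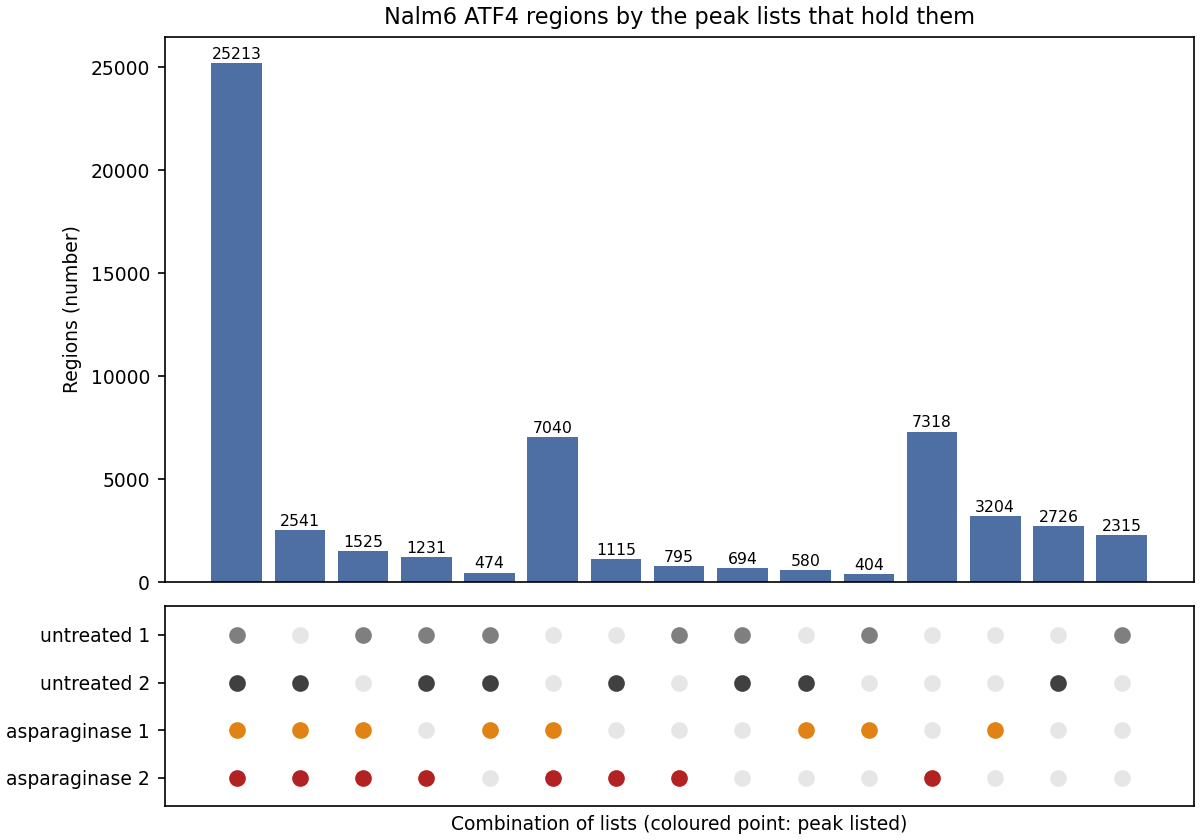
Number of Nalm6 regions (vertical axis) for each of the 15 combinations of the 4 peak lists, shown by coloured points under the bars. The bar for all 4 lists reaches 25213 regions, and the bar for both asparaginase lists alone reaches 7040, against 694 for both untreated lists alone.

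Whether an asparaginase peak was also present without the drug went with its strength. Strength was expressed as the summit pileup ratio, the summit pileup plus 1 divided by the genome background of the library. Regions in both asparaginase lists were ranked by the lower of their ratios and divided into 10 parts of 3289 to 4057 regions, with tied ratios kept together. In the weakest part, with ratios of 4.29 to 6.79, 48.5% of regions (95% Wilson interval 46.8 to 50.1) had no untreated peak and 29.2% had both. In the strongest part, with ratios from 33.5 to 172, 1.42% (1.08 to 1.86) had no untreated peak and 97.1% had both. The reverse ranking gave smaller shares throughout. Of the regions in both untreated lists, 308 of the 2802 in the weakest part had no asparaginase peak (95% Wilson interval 9.89 to 12.2%), and 0 of the 2711 strongest did (Wilson upper bound 0.141%). The strongest binding sites of treated cells were thus nearly all listed in untreated cells already, and intervals cover counting error over regions only.

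At the 25213 regions with a peak in every list, the raw summit pileup was higher with asparaginase about as often as it was lower: it was higher at 12962 regions, 51.4%, with a median change of 0.02 on the log2 scale. The asparaginase libraries were shallower by 0.34 on that scale, as measured by genome background. After scaling by genome background the treated level was above the untreated one at 20461 regions, 81.2%, and the median change was 0.37, so most of this shift is the depth scaling. The scaled change ran from -0.85 to 3.17, with 5% of regions below -0.22 and 5% above 1.79. All changes below are relative to this median shift unless said otherwise. With limma and Benjamini-Hochberg adjustment over all 25213 regions, 5717 regions were higher (22.7%) and 2179 lower (8.64%), so that 72.4% of the calls were increases. Without centring, 9762 regions were higher (38.7%) and 100 lower (0.397%), or 99.0% increases. At 2973 of the higher and 15 of the lower regions the change was at least 2-fold. All 5717 higher regions had both asparaginase ratios above both untreated ratios, as did 15233 of all 25213 regions. The number of lower regions fell to 583 without asparaginase replicate 1 and to 684 without asparaginase replicate 2.

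The replicates of a treatment were closer to each other than to the other treatment. Across these regions the log2 ratios correlated at r = 0.94 between the untreated libraries and r = 0.96 between the asparaginase libraries, and at 0.72 to 0.75 between treatments. These correlations run over regions of the same genome, which are not independent replicates. The difference between replicates of a treatment had an SD of 0.27 in untreated and 0.26 in asparaginase libraries on the log2 scale. With 2 libraries a group, limma takes the spread of a region largely from other regions, and its p-values measure only the spread between these libraries.

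**Figure D2:**
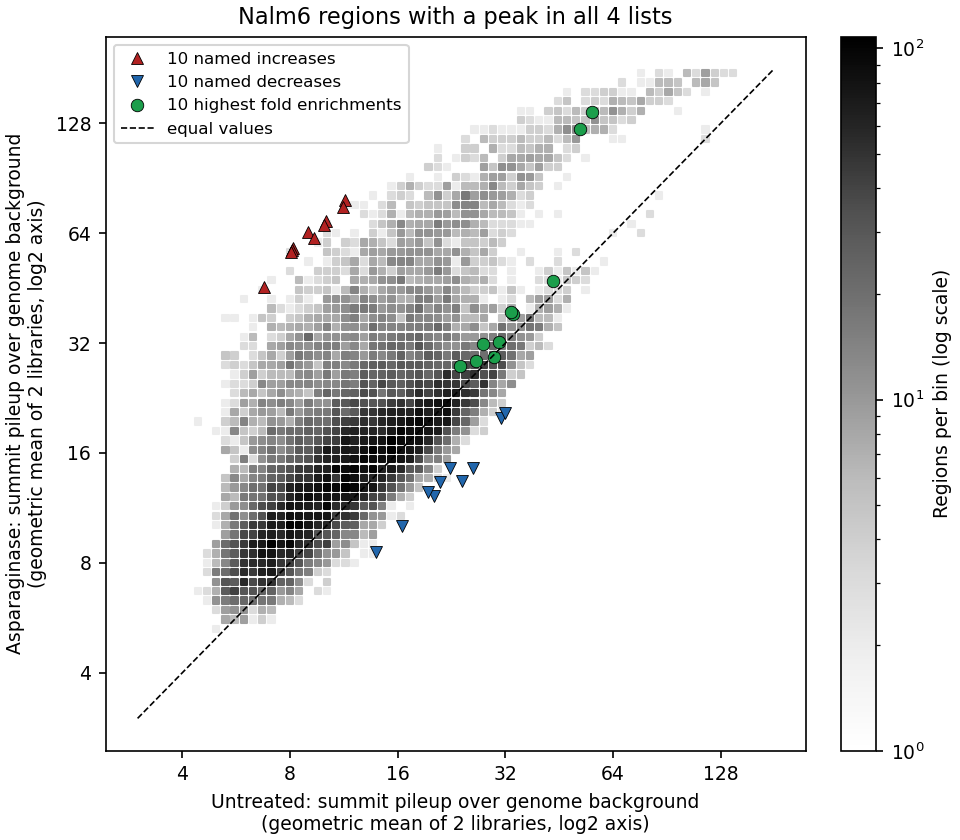
Summit pileup over genome background at the 25213 regions with a peak in all 4 lists, untreated (horizontal, log2 axis) against asparaginase (vertical, log2 axis), each the geometric mean of 2 libraries; grey squares give regions per bin and the dashed line marks equal values. Regions form a dense band along the line and a broad cloud above it that bends toward a common upper limit; 8 of the 10 regions with the highest fold enrichments (green) lie on the band, and the named increases (red) and decreases (blue) lie on either side.

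The response differed with the strength of the site. Regions were ranked by their mean ratio over all 4 libraries, which includes both treatments, and divided into deciles. In decile 1, with mean ratios of 5.07 to 8.06, 2.30% of regions were higher and 2.89% lower. The share of higher regions was 16.1% in decile 5, 33.7% in decile 9 and 69.2% in decile 10, where mean ratios were 30.7 to 156. The share of lower regions rose as well, to 17.9% in decile 9, and was 9.75% in decile 10. The median change lay between -0.12 and 0.04 in deciles 1 to 9 and was 0.87 in decile 10. Ranking by a mean that contains the asparaginase libraries favours increases among the strong regions, so this is a description of where the changes lie.

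Strong sites did not respond uniformly. In decile 10, without centring, 331 of 2522 regions (13.1%) had a lower pileup ratio with asparaginase and 304 had a rise of less than 0.5 on the log2 scale. At the other end, 721 regions rose by 1 to 1.5, 639 by 1.5 to 2 and 190 by 2 or more. In decile 8 the same division put 693 of 2521 regions (27.5%) below 0 and 904 between 0 and 0.5, with 76 at 2 or more. The strong sites held a group near the depth-scaled level of untreated cells and a larger group at 2 to 4 times that level. The relative size of these groups follows in part from the ranking, which includes the asparaginase libraries.

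**Figure D3:**
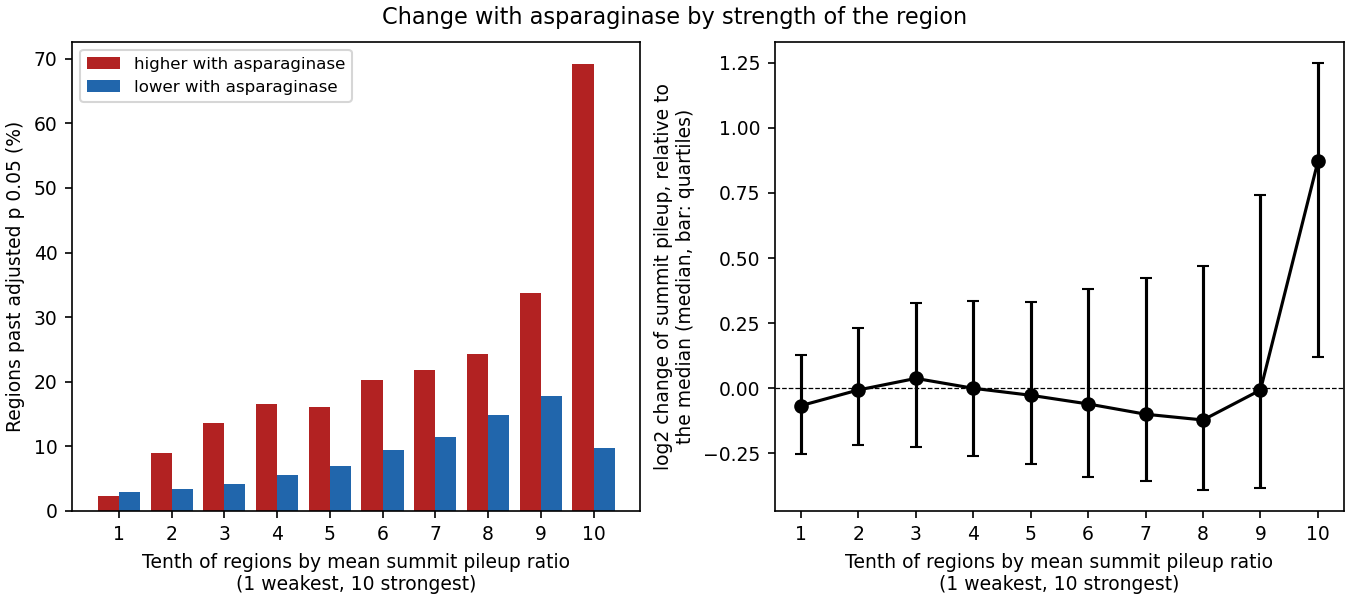
Left, share of regions (%) that were higher (red) or lower (blue) with asparaginase by limma, for 10 equal parts of the 25213 regions from the weakest to the strongest mean summit pileup ratio. Right, median log2 change relative to the median of all regions, with bars from the lower to the upper quartile; decile 10 stands at 0.87 with 69.2% of its regions higher.

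The 10 largest increases were taken from called regions whose lowest fold enrichment was at or above the median of 4.63. The largest was at chr5:132551418-132552193. Its summit held 24 and 21 fragments in the untreated libraries and 122 and 142 in the asparaginase libraries, or 8.41, 7.89, 55.7 and 61.3 times the genome background. The treated level was 7.18 times the untreated level by depth alone, and the change relative to the median was 2.48 (SE 0.20, limma, adjusted p = 2.72e-26). At chr2:63268456-63269396 the ratios were 9.42 and 8.60 without the drug and 70.2 and 59.2 with it, a change of 2.47 (SE 0.19, limma, adjusted p = 4.40e-27). Both untreated values lay far below both treated values at each of these sites. They did not overlap, as at all 5717 higher regions.

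At chr12:1047630-1048600 the ratio went from 8.75 and 7.53 to 55.3 and 60.1. Another region of chromosome 5, chr5:171788314-171789168, went from 6.73 and 9.68 to 54.8 and 58.8. At chr1:25950305-25951294 the summit pileups were 35 and 29 fragments without and 174 and 181 with asparaginase, with both treated values far above the untreated ones. The remaining increases were at chr18:2706743-2707733, chr3:127980425-127981140, chr6:43894251-43895230, chr6:151097753-151099141 and chr2:235286719-235287801. Across all 10 the treated level was 6.64 to 7.18 times the untreated one by depth alone, and the groups did not overlap. Both follow in part from choosing the largest changes. Untreated replicates differed most at the last of these sites, on chromosome 2, with ratios of 6.73 and 12.9.

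The peak caller's fold enrichment changed less at these sites. At the leading site on chromosome 5 the fold went from 6.01 and 5.05 to 13.1 and 13.4. The local background, by which the fold is divided, was 3.16 and 3.36 fragments without and 8.42 and 9.64 with the drug. At chr6:151097753-151099141 the fold went from 6.36 and 7.26 to 9.09 and 9.77 while the pileup went from 28 and 35 to 160 and 181 fragments. With the fold in place of the pileup ratio, the change at that site was 0.33 and no longer passed the threshold, and the other 9 increases still passed. Over the 5717 higher regions the median change without centring was 1.39 in the pileup ratio, 0.70 in the fold and 0.75 in the local background relative to the genome background, all on the log2 scale. With the fold, 3825 regions were higher and 1027 lower. Whether the fragments of a peak enter its own local background was not tested. A change of local background, here or below, is therefore not a separate observation from the change in pileup.

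The decreases were smaller. The largest, chosen by the same rule, was at chr5:176073802-176074834, where ratios of 24.2 and 24.0 without asparaginase stood against 11.3 and 15.9 with it. The change was -1.21 relative to the median (SE 0.21, limma, adjusted p = 1.79e-07) and -0.85 by depth alone. At chr16:3173895-3174972 the ratios were 22.9 and 29.4 against 12.7 and 16.7, a change of -1.20 (SE 0.21, limma, adjusted p = 1.43e-07). Treated and untreated values did not overlap at either site, both of which were chosen for their large decrease.

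Another decrease, at chr16:28890758-28891680, had ratios of 18.2 and 22.6 without and 10.9 and 13.7 with the drug. At chr1:231003778-231004634 they were 14.1 and 13.6 against 8.60 and 8.58, with close replicates. The others were at chr2:27356855-27357875, chr2:25895800-25896901, chr1:22263408-22264540, chr4:1872004-1872894, chr5:179233275-179234349 and chr16:3661049-3662113. By depth alone the treated level of the 10 decreases was 0.556 to 0.650 times the untreated one. All 10 also passed the threshold without centring. Among all 2179 lower regions, 1295 had both asparaginase ratios below both untreated ratios. These ratios are not centred, unlike the call, and the share over all 25213 regions in this direction is not given here. Lower regions had median untreated ratios of 20.2 and 22.2, against 12.1 and 14.3 at higher regions. The untreated ratio enters the call, and a lower region still had to hold a peak in both asparaginase lists. The difference in untreated ratios therefore follows in part from the selection. The median width of the joined regions was 1076 bp at lower and 847 bp at higher regions.

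**Figure D4:**
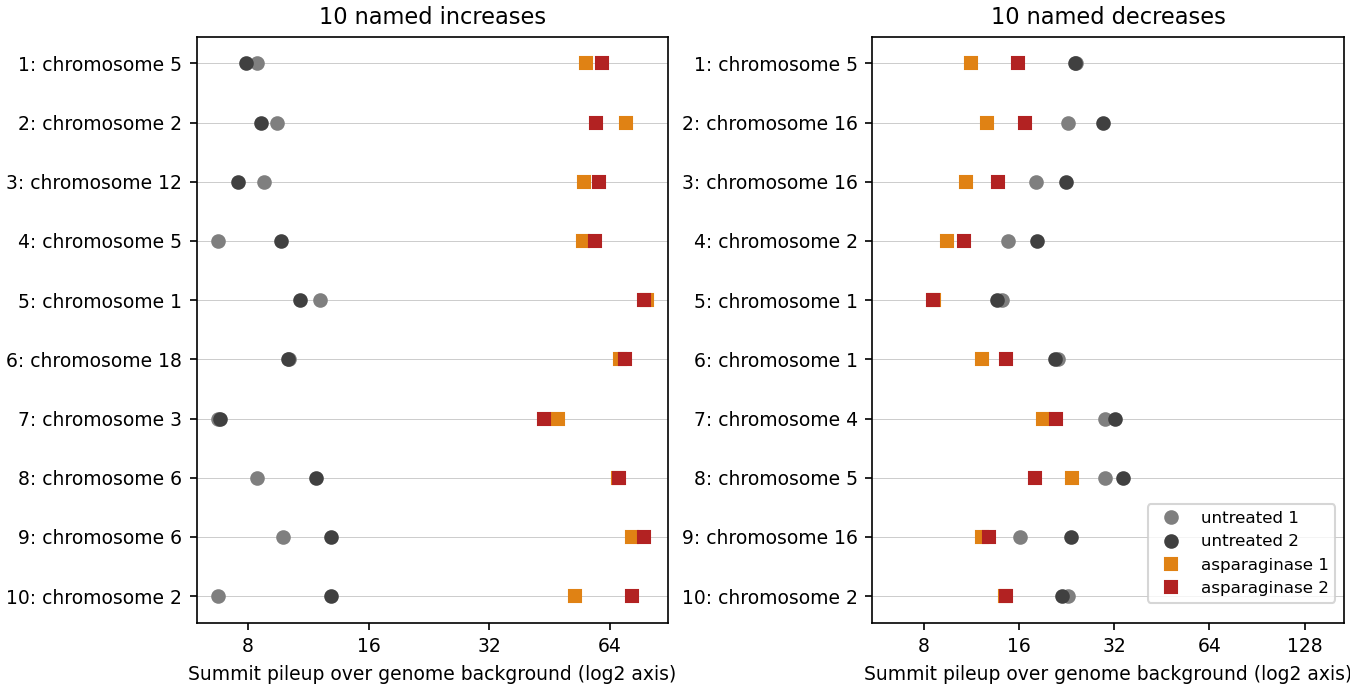
Summit pileup over genome background (log2 axis) in each of the 4 libraries at the 10 named increases (left) and 10 named decreases (right), numbered by size of change; circles are untreated and squares asparaginase libraries. At every increase both squares lie right of both circles by a wide gap, and at every decrease both lie to the left by a smaller one.

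Most of the 10 regions of highest fold did not pass the test for a change, as with 17317 of all 25213 regions. Of the 100 leading regions 73 were higher and 7 lower, beside 22.7% and 8.64% of all regions tested. A region at chr8:43831394-43831775 led all 4 lists, with folds of 24.7 and 25.3 in untreated and 24.7 and 25.1 in asparaginase libraries. Its pileups were 97 and 95 fragments against 83 and 89, and the change was -0.18 relative to the median (SE 0.18, limma, adjusted p = 0.481). Of the 10 regions with the highest lowest fold over the 4 lists, 8 were not called. Other settings called some of these 8 lower: 5 with 1 peak per list and summits within 100 bp (-0.64 to -0.43), where the median shift is larger, 2 by the caller's fold, and chr1:569739-570118 also with the replicate block and without untreated replicate 2 (-0.50). They were 367 to 581 bp wide and lay on chromosomes 1, 8, 17, X and Y, and their local backgrounds were 2.21 to 4.78 fragments. Whether the peaks at these 8 regions mark ATF4 binding was not tested. The direction of 7 of these 8 turned without centring, where they stood at 0.065 to 0.23, again not past the threshold.

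The other 2 of these 10 were called higher and were wider. At chr19:966460-967309 the pileup was 136 and 161 fragments without the drug and 262 and 297 with it, or 46.1, 58.1, 119 and 128 times the genome background. The change was 0.89 (SE 0.17, limma, adjusted p = 1.35e-06), although the fold stayed at 20.4 and 19.1 against 21.4 and 20.8. At chr17:19896060-19896866 the ratio went from 47.5 and 65.6 to 134 and 142, a change of 0.94 (SE 0.16, limma, adjusted p = 2.92e-07). By the fold the changes were -0.043 and -0.042, and neither passed the threshold. A wider look, chosen after the values were seen, gave the same contrast: among the 100 regions with the highest lowest fold, all 10 narrower than 600 bp were not called, and of the 90 wider ones 73 were higher, 7 lower and 10 not called.

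At the sites of highest pileup the libraries had nearly the same raw value. The highest summit pileup was 394 and 399 fragments in the untreated lists and 400 in both asparaginase lists. The regions below were named after their values were seen. At chr15:41244593-41246210 the pileup was 388, 398, 400 and 400 fragments, at chr16:87812152-87813320 it was 394, 398, 400 and 400, and at chr1:33282246-33283978 it was 393, 399, 399 and 400. None of these sites was called. Their local background was higher with the drug, on chromosome 15 from 30.6 and 31.9 to 47.9 and 52.2 fragments. Pileups of at least 350 in all 4 lists occurred at 6 regions. Their changes without centring were 0.36 to 0.40, beside a depth difference of 0.34 between the treatments, and none was called; whether a higher pileup could have been recorded was not tested. Without the regions that reached 300 fragments in any list, 5482 regions were higher and 1975 lower.

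Gained regions, by definition, have no value in untreated cells. The smallest ratios listed in the untreated libraries, at sites with no raised local background, were 3.70 and 4.30. Binding below such a limit would not be listed, and the limit is higher where the local background is high. The lower asparaginase ratio of a gained region had a median of 8.58. It reached 10 at 2366 gained regions (33.6%) and 20 at 304 (4.32%). In the opposite class the lower untreated ratio reached 10 at 94 of 694 regions and 20 at 2.

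The gained regions of highest fold were at chr7:76108740-76109434, with asparaginase ratios of 34.9 and 35.2, at chr15:34190533-34191075 (28.1 and 34.3) and at chr5:143261801-143262714 (31.7 and 37.3). Their local backgrounds were 2.76 to 4.70 fragments, against genome backgrounds of 2.21 and 2.33. Further sites of this set were at chr15:49550384-49551033, chr17:35725520-35726071, chr17:76028870-76029548, chr1:26813657-26814258, chr4:9849794-9850534, chr10:133275517-133276261 and chr3:139917590-139918479. Their ratios were 20.6 to 35.6.

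Gained regions of highest pileup were different ones, named after their values were seen. At chr16:81834153-81834779 the pileup was 136 and 154 fragments, and at chr10:104406791-104407320 it was 129 and 158. Their local backgrounds were 17.7 and 20.4, and 22.3 and 26.4 fragments, far above the genome background. At chr17:77965461-77966127 the pileup was 126 and 144 over a local background of 53.1 and 58.4, so that the fold was only 2.35 and 2.44. At sites with such a background a peak needs many more fragments to be listed, and no untreated level is known there.

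Untreated-only regions, 694 with the full lists and 2122 with lists of equal length, were mostly weak: in the full lists their lower ratio had a median of 6.06. The leading one, at chr5:49436957-49437310, had ratios of 9.42 and 11.5. The next were at chr14:77647870-77648863 (8.08 and 11.8) and chr6:25070905-25071342 (7.07 and 7.89), then chr3:197381082-197381321 and chr10:93471897-93472427. With a −log10 q of at least 10 required of every peak, 1 of these 5 remained in the class. These regions lay near other binding more often than gained ones. A region with a peak in all 4 lists was within 1 kb of 18.4% of untreated-only regions (95% Wilson interval 15.7 to 21.5) and of 5.88% of gained regions (5.35 to 6.45). The median distance to such a region was 10043 bp for untreated-only and 22182 bp for gained regions.

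Chromosomes differed in their share of each class. Chromosome 19, which is rich in genes for its size, held 1372 of the regions found in all lists (5.44%) and 169 gained regions (2.40%, 95% Wilson interval 2.07 to 2.78). Per 100 regions found in all lists there were 12.3 gained ones on chromosome 19, 14.5 on chromosome 22, 16.7 on chromosome 17 and 19.5 on chromosome 16. The same number was 40.7 on chromosome 4, 38.8 on chromosome 13, 36.9 on chromosome 5 and 34.4 on chromosome 2. Chromosomes 4 and 5 also had more called increases than chromosome 19. On chromosome 19, 15.2% of regions were higher (13.4 to 17.2), the lowest share of any chromosome, against 26.8% on chromosome 4 (24.1 to 29.7) and 27.1% on chromosome 5 (24.7 to 29.7). The share of lower regions was 9.99% on chromosome 19 and 7.73% on chromosome 4. Chromosome Y held only 34 regions found in all lists, of which 19 were higher.

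**Figure D5:**
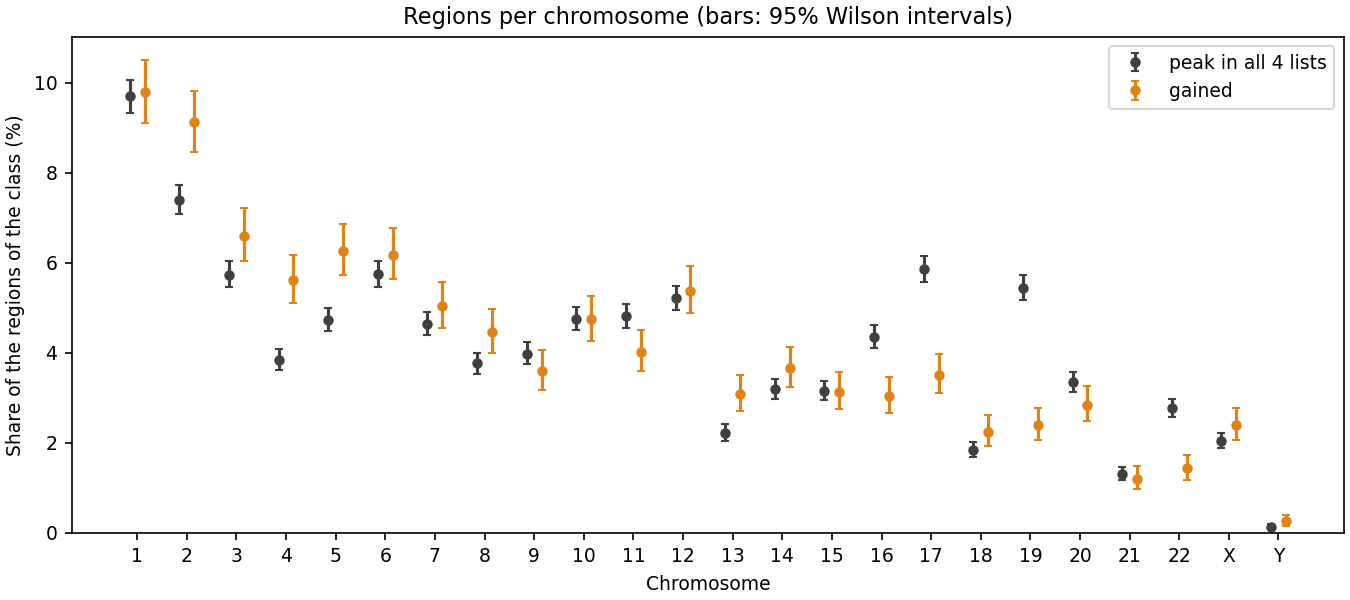
Share of regions (%) on each chromosome for regions with a peak in all 4 lists (dark) and for gained regions (orange), with 95% Wilson intervals that cover counting error only. Gained regions hold a smaller share on chromosomes 16, 17, 19 and 22 and a larger one on chromosomes 2, 4, 5 and 13.

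The SUPB15 libraries, treated with the same dose for the same time, gave a readout that took no part in these calls. The SUPB15 lists were very unequal, with 9575 and 9586 untreated and 88302 and 41213 asparaginase peaks. A peak in both asparaginase lists of SUPB15 was found at 40.8% of all 25213 regions tested, at 61.9% (95% Wilson interval 60.7 to 63.2) of the regions called higher in Nalm6, at 51.0% (48.9 to 53.1) of those called lower and at 32.6% (31.9 to 33.3) of those not called. A peak in both untreated lists of SUPB15 was found at 28.5% of the higher, 23.3% of the lower and 10.5% of the not called regions, in the same order. A peak in both asparaginase lists of SUPB15 was found at 32.7% of gained regions and at 2.45% (1.53 to 3.89) of untreated-only regions. Of the untreated-only regions, 87.2% were absent from every SUPB15 list. The shares with a peak in both SUPB15 asparaginase lists move with strength. Within decile 10 of Nalm6 they were 86.1% for higher, 79.3% for lower and 83.2% for not called regions.

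The size of the change in SUPB15 differed between the Nalm6 calls, and most regions of every call were above 0 there. All 4 SUPB15 lists held a peak at 3800 of the Nalm6 regions tested, and the median change there, scaled by genome background and not centred, was 0.56 on the log2 scale. It was 1.36 (quartiles 1.06 and 1.59) at the 1611 regions called higher in Nalm6, 0.20 (0.06 and 0.35) at 461 lower regions and 0.30 (0.11 and 0.53) at 1728 regions not called. The SUPB15 change was above 0 at 1582 higher, 390 lower and 1506 not called regions. Of the higher regions 92.2% were above the SUPB15 median, compared with 5.21% of the lower and 22.6% of those not called. Within decile 10 of Nalm6, whose mean ratios still span 30.7 to 156, the medians were 1.36, 0.18 and 0.34. Regions are not independent replicates, and SUPB15 sites without an untreated peak cannot enter, so these are descriptions with no test.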

How the data were processed

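ATF4 ChIP-seq peak lists of 4 Nalm6 libraries were analysed, with 4 SUPB15 lists as a separate readout; groups and replicate numbers come from sample titles. BWA, MACS2 and DiffBind and the hg19 build are named in the submitters' processing notes; for versions, options and any control library the sources used here give nothing. The deposited lists, 1 per library, hold the authors' fold enrichment (a ratio) and their −log10 p and −log10 q values for each peak; the summit offset was also used.

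Pileup and local background were solved from fold and p (tolerance 0.001 in −log10 p), assuming fold = (pileup + 1) / (background + 1) and a Poisson p. Where a region had several peaks in a list, the highest pileup and, separately, the highest fold were used. Changes at regions in all 4 lists were tested with limma 3.58.1 in R 4.3.3 (trend, centred on the median, Benjamini-Hochberg threshold 0.05). The solving, the joining of peaks and the limma step were each tested on simulated data. The simulated sites had at most 1 peak per list, so the choice among several peaks was not tested. Raw read depth is unknown; genome background stands in for it, and intervals cover counting error only.

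Named were the 10 regions of highest lowest fold over 4 lists, 10 gained and 5 untreated-only regions of highest lower fold, 10 increases and 10 decreases among called regions with lowest fold at or above the median, and the strongest peak per list. Members and rules were chosen with earlier results of these data known. Planned promoter shares, gene lists and motif counts were not run, as no hg19 annotation or genome was used here. Nothing says replicate numbers mark a shared culture.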

Additional observations from a re-analysis of the deposited data

How the results depend on the processing

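Replicate numbers do not pair the libraries by any label, and deviations of same-numbered libraries correlated at r = 0.03 over 25213 regions. With replicate number as a block, limma gave 6396 higher and 3604 lower regions, and the ratio of mean peak numbers stayed at 1.29. Its exact permutation p (two-sided) was 0.333 without and 0.5 with the block, in each case the lowest p the design can reach. That ratio was 1.21 to 1.37 without single libraries and 1.38 and 1.42 with −log10 q of at least 5 and 10.

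Gained regions numbered 4304 with 34825 strongest peaks per list, which shortens the asparaginase lists, and 8609 to 14580 without single libraries. Untreated-only regions numbered 450 and 407 with −log10 q of at least 5 and 10, 2122 with equal lists and 1496 with summits chained within 200 bp. The cause of these moves was not tested. Without single libraries there were 1182 to 3619 untreated-only regions. Leaving out a library loosens the definition of either class, so both counts grow by construction. Higher and lower regions numbered 9762 and 100 without centring, 3825 and 1027 by the caller's fold, and 3619 and 1107 when −log10 q had to reach 10 in all lists, where only 12081 regions were tested. Without single libraries there were 4098 to 5344 higher and 583 to 1552 lower regions, with the lone library of a group assumed to vary like the other group. With 1 peak per list and summits within 100 bp, an alternative chosen after seeing the data like the limit of 300 fragments, 8529 regions gave 2936 and 2182, and 57.4% of calls were increases around a median shift of 0.62.

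Directions turned without centring at the narrow strong regions on chromosome 8 (0.19 and 0.21), chromosome 17 (0.12, 0.065 and 0.11), chromosome X (0.23) and chromosome Y (0.20), and by the caller's fold at those on chromosome 19 (-0.043) and chromosome 17 from 19896060 (-0.042). The block changed 1 named call, the region on chromosome 1 from 569739, to -0.38 past the threshold; the caller's fold (-0.25) and leaving out untreated replicate 2 (-0.50) did so too. Gene list windows were not run.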

Other observations

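Summit positions differed little between treatments. At the 20104 regions with 1 peak in each list, the median distance between the summits of the untreated libraries was 54 bp and of the asparaginase libraries 43 bp, and it was 50 to 55 bp for the 4 pairs across treatments. At regions called higher the summits of the asparaginase replicates were 20 bp apart and those of the untreated replicates 39 bp. At regions called lower the order was the other way, with 54 bp between asparaginase and 35 bp between untreated summits. At regions not called the distances were 60 and 65 bp. The mean summits of the treatments were 25 bp apart at higher, 39 bp at lower and 52 bp at not called regions.

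Regions lay in loose clusters. Another region of any class was within 1 kb of 18.0% of regions found in all 4 lists, of 13.8% of gained regions and of 36.2% of untreated-only regions. The median gap to the nearest region was 6935, 9518 and 2574 bp for these classes.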
